A study of Mus musculus with 6 samples.

Results

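Transcripts of the E2F transcription factors and of the pocket proteins that bind them were quantified by RNA sequencing in 2 kinds of cultured mouse macrophage. The members were the 10 genes E2f1, E2f2, E2f3, E2f4, E2f6, E2f7, E2f8, Rb1, Rbl1 and Rbl2, found by their symbols among the 24411 genes of the deposited tables. The cultures were started from monocytes of C57BL/6 bone marrow (an inbred mouse strain) that flow cytometry had sorted as LFA1-lo Itgam-lo or LFA1-hi Itgam-hi. LFA1 and Itgam are adhesion receptors of leukocytes, and the cultures are called LFA1-lo and LFA1-hi after that sort. Both kinds of cell then grew for 7 days in the same medium with 10% serum and 20 ng/ml of the macrophage growth factor M-CSF, which was renewed on day 4. Each group held 3 libraries. Whether the libraries of a group stem from different animals, or even different cultures, is not in the labels, and the p-values below therefore refer to the variation among these libraries alone, part or all of which may be technical.

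E2F factors bind the promoters of genes needed for DNA replication and division. E2f1, E2f2 and E2f3 are the activators of the family and drive entry into S phase. E2f4 mostly represses in resting cells together with a pocket protein, and E2f6 represses through Polycomb complexes without one. E2f7 and E2f8, the atypical members, repress later in the cycle without Tfdp1 or Tfdp2, the dimerization partners of the other E2F factors. The pocket proteins, encoded by Rb1 (the retinoblastoma protein), Rbl1 and Rbl2, hold E2F factors inactive until cyclin-dependent kinases phosphorylate them. Rbl2 is best known from resting cells, Rbl1 from cycling cells, and Rb1 is made in both.

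Summed expected counts (RSEM's estimate of the reads of each gene) were 15191262 to 17614509 per library, and each member had between 196 and 1691 counts in a library. LFA1-lo replicate 2 was the lowest or the highest LFA1-lo library for every member but E2f6, and results that turn on it are also given without it. Levels are given in TPM, a level per unit of transcript length that can be compared between genes. The 6 macrophage markers were detected in all libraries, at levels from 24.4 to 56.45 TPM for Mertk up to 2260 to 3020 TPM for Cd68. Csf1r stood at 642 to 1510 TPM and Adgre1 at 519 to 1013 TPM. Of the 6 markers 3 were called lower in LFA1-hi (Adgre1, Csf1r and Cd68). The T cell markers Cd3e and Cd3g were listed at 0 in all libraries. Of the neutrophil and granule markers 6 were measured. Their sum was 49.8, 134 and 177 TPM in LFA1-lo replicates 1, 2 and 3, and 31.6, 22.4 and 32.7 TPM in the LFA1-hi replicates. S100a9 and Ngp were called lower, and no marker of the list was at 0 in all libraries. The 4 monocyte markers measured summed to 55.2 to 92.6 TPM in LFA1-lo libraries, against 36.7 to 55.0 TPM in LFA1-hi. Of these Ccr2 was called lower, at 10.3, 21.97 and 18.3 TPM in LFA1-lo replicates 1, 2 and 3 and 1.62, 1.87 and 1.28 TPM in the LFA1-hi replicates. The 4 progenitor markers summed to 3.76 to 6.4 TPM in LFA1-lo libraries, against 3.99 to 4.72 TPM in LFA1-hi, with Flt3 at 0 in all libraries and Kit called lower (0.32 to 0.47 TPM against at most 0.12 TPM). The part of these cells in the results was not tested.

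LFA1-hi macrophages had higher levels of 7 of the 10 members, namely E2f1, E2f2, E2f4, E2f6, E2f7, E2f8 and Rbl1. E2f3, Rb1 and Rbl2 did not pass the test. All 4 repressor E2Fs among the members rose, as did 2 of the 3 activators and 1 of the 3 pocket proteins. These counts depend in part on E2f4, which lost its call in 5 of 19 alternative analyses, and on E2f3, which gained a call in 1. E2f5, a repressor of the family outside the members, did not pass (edgeR adjusted p = 0.879). The test was edgeR's quasi-likelihood test over 11692 genes with a threshold of 0.05 on the adjusted p, and all 10 members were among the genes tested. Over all tested genes 16.1% were called higher and 15.6% lower in LFA1-hi. No member was called lower by edgeR, DESeq2 or limma voom, and 0 members were lower at an unadjusted p under 0.05 in edgeR. The median log2 fold change was 0.87 over the members and −0.005 over all tested genes. Rises of at least 2-fold were called for 4 members (E2f2, E2f7, E2f8 and Rbl1) and for 5.32% of tested genes. Leaving out single libraries gave 6 to 8 members called higher. In bulk RNA a smaller number of cells that express a gene and less of its RNA per cell cannot be told apart.

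**Figure D1:**
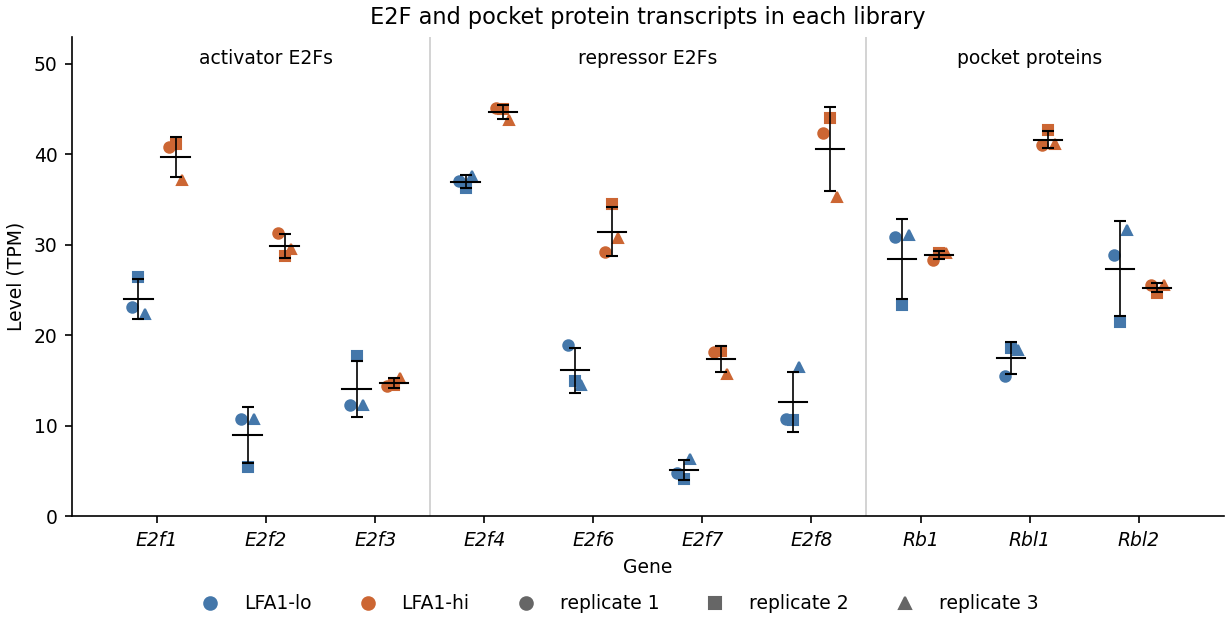
Level of each member in TPM (y axis) in the 6 libraries; points are libraries, with the marker shape giving the replicate, and bars give the mean and SD of 3 libraries. The points of LFA1-hi lie above all points of LFA1-lo for 7 genes and overlap them for E2f3, Rb1 and Rbl2.

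Promoter sequences were examined because several members are known as targets of the E2F factors themselves. RefSeq windows of 300 bases (GRCm38.p6, 250 before and 50 after the annotated start) were matched for 8 of the 10 members. They were searched on both strands for the E2F site words TTTCCCGC, TTTGGCGC, TTTCGCGC and TTTGCCGC. They were also searched for TTTGAA, the word of the cell cycle genes homology region (CHR) that the MuvB complex binds. The windows of E2f1 and E2f8 start from an annotated start inside the gene's span and do not reach the span's 5′ end. An E2F word was found in a window of 4 of the 8 genes (E2f2, E2f3, E2f7 and Rbl1), against 2.60% of all 27025 genes and 2.26% of all 32851 windows of the table. The CHR word was found for 4 of the 8 (E2f2, E2f3, E2f8 and Rbl2), against 20.2% of genes and 17.9% of windows. E2f2 and E2f3 had 2 windows each. The CHR word of E2f2 lay only in its second window (chr4:136180532-136180831), which is not shown. The E2F words do not overlap the CHR word in these windows. The windows that hold an E2F word are shown 5′ to 3′ on the gene's strand. That of E2f8 is also shown, for its CHR word close to its annotated start. Each word is in capitals as it reads on that strand. Positions count from 1 at the annotated start, with −1 the base before it.
The first E2f2 window (chr4:136172024-136172323, plus strand) holds the E2F word at 40 to 47.
E2f2: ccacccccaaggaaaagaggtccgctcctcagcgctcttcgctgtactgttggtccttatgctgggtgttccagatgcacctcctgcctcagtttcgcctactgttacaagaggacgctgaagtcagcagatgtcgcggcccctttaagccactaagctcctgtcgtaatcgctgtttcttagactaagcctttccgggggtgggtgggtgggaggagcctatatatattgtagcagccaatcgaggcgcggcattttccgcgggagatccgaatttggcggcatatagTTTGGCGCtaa
The first E2f3 window (chr13:29986014-29986313, minus strand) holds the CHR word at −23 to −18 and an E2F word, read from the other strand, at −11 to −4.
E2f3: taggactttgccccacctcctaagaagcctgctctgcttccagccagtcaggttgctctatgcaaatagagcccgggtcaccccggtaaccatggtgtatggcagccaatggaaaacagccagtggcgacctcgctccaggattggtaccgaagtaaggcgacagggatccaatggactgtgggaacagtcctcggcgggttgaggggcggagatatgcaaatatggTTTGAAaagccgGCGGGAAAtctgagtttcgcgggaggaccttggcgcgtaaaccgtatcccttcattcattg
The E2f7 window (chr10:110745189-110745488, plus strand) holds an E2F word, read from the other strand, at −198 to −191.
E2f7: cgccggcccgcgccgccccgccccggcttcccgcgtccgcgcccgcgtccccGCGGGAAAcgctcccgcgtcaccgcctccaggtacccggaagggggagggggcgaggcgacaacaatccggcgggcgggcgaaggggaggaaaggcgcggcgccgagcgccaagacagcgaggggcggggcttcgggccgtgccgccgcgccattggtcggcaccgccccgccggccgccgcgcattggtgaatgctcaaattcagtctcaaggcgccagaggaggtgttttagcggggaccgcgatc
The Rbl1 window (chr2:157204485-157204784, minus strand) holds an E2F word at −18 to −11.
Rbl1: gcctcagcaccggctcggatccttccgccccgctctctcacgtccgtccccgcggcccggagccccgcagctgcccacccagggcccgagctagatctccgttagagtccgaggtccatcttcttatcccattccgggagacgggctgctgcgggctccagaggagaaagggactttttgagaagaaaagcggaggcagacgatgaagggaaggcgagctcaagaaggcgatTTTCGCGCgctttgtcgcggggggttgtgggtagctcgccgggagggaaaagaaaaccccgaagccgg
The E2f8 window (chr7:48881547-48881846, minus strand) holds the CHR word, read from the other strand, at −20 to −15.
E2f8: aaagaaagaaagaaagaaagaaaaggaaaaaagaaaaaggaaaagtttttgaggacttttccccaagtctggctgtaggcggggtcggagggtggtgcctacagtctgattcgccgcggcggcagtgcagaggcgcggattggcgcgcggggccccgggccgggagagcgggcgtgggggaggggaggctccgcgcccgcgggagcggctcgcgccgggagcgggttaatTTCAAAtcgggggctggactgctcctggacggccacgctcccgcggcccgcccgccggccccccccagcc

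E2f1, the activator best known for starting S phase, lies on chromosome 2 from 154559400 to 154569892 (GRCm38). Its level was 23.1, 26.5 and 22.4 TPM in LFA1-lo replicates 1, 2 and 3, and 40.8, 41.1 and 37.2 TPM in LFA1-hi replicates 1, 2 and 3. The groups did not overlap, as for 7 of the 10 members. LFA1-hi was above LFA1-lo without overlap for 23.7% of tested genes and below it for 23.5%. The edgeR estimate was 1.68-fold higher in LFA1-hi (95% interval 1.43 to 1.99, adjusted p = 0.000861).

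E2f2, an activator linked to blood cell proliferation, is on chromosome 4 from 136172274 to 136196057. It stood at 10.8, 5.42 and 10.8 TPM in the LFA1-lo libraries and at 31.3, 28.7 and 29.6 TPM in the LFA1-hi libraries. The LFA1-hi libraries lay close together, while LFA1-lo replicate 2 lay well below the other libraries of its group. E2f2 was 3.40-fold higher in LFA1-hi (2.40 to 4.81, edgeR adjusted p = 0.000729), with a log2 fold change of 1.77 that became 1.53 without LFA1-lo replicate 2.

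E2f3 (chromosome 13, 29906575 to 29986064), the activator that is often present through the whole cycle, read 12.3, 17.7 and 12.3 TPM in LFA1-lo and 14.4, 14.5 and 15.3 TPM in LFA1-hi. LFA1-lo replicate 2 was here the highest of all 6 libraries, above every LFA1-hi library, and the other LFA1-lo libraries were below all of them. Its fold change was 1.09 (0.850 to 1.40, edgeR adjusted p = 0.591). Without LFA1-lo replicate 2 E2f3 passed the test, with a log2 fold change of 0.35 (adjusted p = 0.0112, range over alternatives 0.0112 to 0.937).

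Among the repressors, E2f7 (chromosome 10, 110745439 to 110787384) had the largest log2 fold change of the 10 members. Its level was 4.83, 4.17 and 6.36 TPM in LFA1-lo and 18.2, 18.3 and 15.7 TPM in LFA1-hi. It was the lowest of the 10 in LFA1-lo macrophages and 3.45-fold higher in LFA1-hi (2.73 to 4.36, edgeR adjusted p = 6.1e-05).

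E2f8 (chromosome 7, 48866429 to 48882073), which pairs with E2f7 in repressing the same promoters, stood at 10.8, 10.6 and 16.5 TPM in LFA1-lo and 42.3, 44.1 and 35.3 TPM in LFA1-hi. Within LFA1-lo both atypical genes were highest in replicate 3, and within LFA1-hi both were lowest in replicate 3. E2f8 was 3.26-fold higher in LFA1-hi (2.49 to 4.26, edgeR adjusted p = 0.000186). The ratio of E2f8 to E2f7 in TPM was 2.46 ± 0.194 in LFA1-lo and 2.33 ± 0.0855 in LFA1-hi (mean ± SD, n = 3 each), and these values overlapped.

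E2f6 (chromosome 12, 16810909 to 16826752), the Polycomb-linked repressor, read 18.9, 14.9 and 14.5 TPM in LFA1-lo and 29.2, 34.5 and 30.7 TPM in LFA1-hi. Every LFA1-hi library was above every LFA1-lo library. The rise was 1.97-fold (1.63 to 2.39, edgeR adjusted p = 0.000464).

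E2f4 (chromosome 8, 105297663 to 105305370), the repressor of resting cells, was the most abundant member in both cultures. It stood at 37.1, 36.3 and 37.6 TPM in LFA1-lo and 45.2, 45.0 and 43.8 TPM in LFA1-hi, with coefficients of variation of 1.89% and 1.63%, the smallest of the E2F genes in each culture. The groups did not overlap although the rise was only 1.23-fold (1.07 to 1.40, edgeR adjusted p = 0.0291). This call was lost without LFA1-lo replicate 1 (adjusted p = 0.0735) and without LFA1-hi replicate 1, 2 or 3 (0.1001, 0.0759 and 0.0917). Over all alternatives its adjusted p ran from 0.00909 to 0.1001, and its log2 fold change from 0.27 to 0.36.

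Of the pocket proteins, Rbl1 (chromosome 2, 157145893 to 157204534), itself known as an E2F target, read 15.5, 18.6 and 18.4 TPM in LFA1-lo and 41.1, 42.7 and 41.1 TPM in LFA1-hi. The LFA1-hi libraries differed from one another by less than 2 TPM, and all were above the LFA1-lo libraries. Rbl1 was 2.42-fold higher in LFA1-hi (2.08 to 2.80, edgeR adjusted p = 3.5e-05), the smallest adjusted p of the members.

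Rb1 (chromosome 14, 73192858 to 73325951) was at 30.9, 23.3 and 31.1 TPM in LFA1-lo and 28.3, 29.1 and 29.1 TPM in LFA1-hi. LFA1-lo replicate 2 was below, and the other LFA1-lo libraries above, every LFA1-hi library. Its fold change was 1.03 (0.874 to 1.22, edgeR adjusted p = 0.775). The gene Lpar6, which lies inside the span of Rb1 and was chosen after its values were seen, fell from 45.0 to 18.7 TPM (log2 fold change −1.24, adjusted p = 3.6e-05). Whether counting used the read strand is not given in the sources used here.

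Rbl2 (chromosome 8, 91070057 to 91123844), the pocket protein of resting cells, read 28.9, 21.5 and 31.7 TPM in LFA1-lo and 25.5, 24.7 and 25.6 TPM in LFA1-hi. As for Rb1, LFA1-lo replicate 2 was the lowest library and the other LFA1-lo libraries the highest. Its fold change was 0.940 (0.774 to 1.14, edgeR adjusted p = 0.626). Over all alternatives its log2 fold change ran from −0.22 to 0.027 and its adjusted p from 0.0504 to 0.965. Rbl2 thus came close to a call in at least 1 alternative but passed in none. Rbl2 shares 12064 bases of its span with Aktip and was the only member whose expected count was not whole in any of the 6 libraries, so its reads may be shared with another gene.

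**Figure D2:**
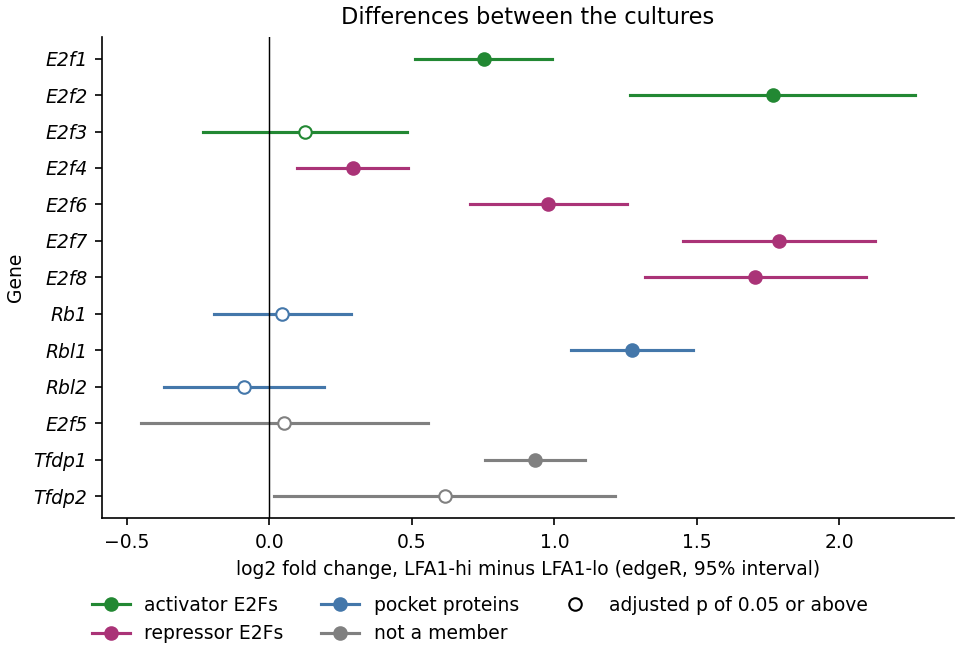
Log2 fold change of LFA1-hi minus LFA1-lo (x axis) for the 10 members and 3 related genes (y axis), from edgeR with 95% intervals; open points had an adjusted p of 0.05 or above. E2f2, E2f7 and E2f8 lie between 1.71 and 1.79, Rbl1 at 1.27, and the intervals of E2f3, Rb1 and Rbl2 include 0.

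The order of levels also differed between the cultures. In LFA1-lo macrophages E2f4 stood first at 37.0 ± 0.700 TPM (mean ± SD, n = 3), followed by Rb1 at 28.4 ± 4.43, Rbl2 at 27.4 ± 5.25 and E2f1 at 23.99 ± 2.19 TPM, of which each neighbouring pair after E2f4 overlapped. A second tier without overlap to E2f1 began with Rbl1 at 17.5 ± 1.74 TPM and went through E2f6, E2f3, E2f8 and E2f2 to E2f7 at 5.12 ± 1.12 TPM, and every gene of it overlapped its neighbour.

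In LFA1-hi macrophages E2f4 was again first at 44.7 ± 0.728 TPM (mean ± SD, n = 3) and did not overlap Rbl1 at 41.6 ± 0.950 TPM. Rbl1, E2f8 (40.6 ± 4.63 TPM) and E2f1 (39.7 ± 2.18 TPM) followed with overlapping neighbours. E2f6 (31.5 ± 2.73), E2f2 (29.9 ± 1.32) and Rb1 (28.8 ± 0.442 TPM) formed the next tier. Rbl2, E2f7 and E2f3 then followed at 25.3, 17.4 and 14.7 TPM, none of them overlapping the gene before it. E2f8 thus ranked above the pocket proteins Rb1 and Rbl2 in every LFA1-hi library and below them in every LFA1-lo library.

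Activators and repressors were compared by their summed TPM within each library, as a description without a test. The sums hold members alone, so E2f5 is left out. The 3 activators together had 46.2, 49.6 and 45.5 TPM in LFA1-lo and 86.5, 84.4 and 82.1 TPM in LFA1-hi. The 4 repressors had 71.6, 65.9 and 74.98 TPM in LFA1-lo and 135, 142 and 126 TPM in LFA1-hi. Both sums were higher in every LFA1-hi library, by 1.79 and 1.89 times between the group means. Their ratio was therefore alike in range, at 0.645, 0.752 and 0.606 in LFA1-lo and 0.642, 0.595 and 0.654 in LFA1-hi, and the groups overlapped.

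The ratio depended on which repressors were summed. With E2f4 left out it was 1.41 ± 0.235 in LFA1-lo and 0.947 ± 0.0679 in LFA1-hi (mean ± SD, n = 3 each), with no overlap. With E2f7 and E2f8 alone as the repressors it was 2.96, 3.36 and 1.99 in LFA1-lo and 1.43, 1.35 and 1.61 in LFA1-hi. Activator transcripts thus exceeded those of the atypical repressors in all libraries, by a narrower margin in each LFA1-hi library than in any LFA1-lo library. Summed TPM of the atypical pair was 3.27 times as high in LFA1-hi as in LFA1-lo.

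**Figure D3:**
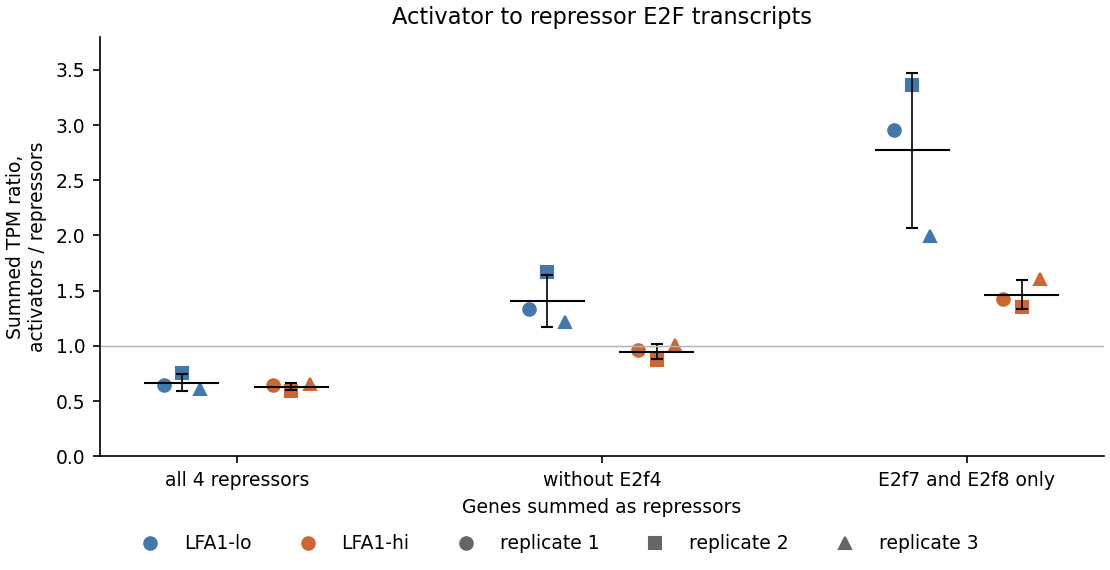
Ratio of summed TPM of E2f1, E2f2 and E2f3 to that of the repressors (y axis) under 3 definitions of the repressors (x axis); points are libraries and bars the mean and SD of 3 libraries. The groups overlap when all 4 repressors are summed and separate when E2f4 is left out (1.41 against 0.947) or E2f7 and E2f8 are taken alone (2.77 against 1.46).

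Shares were taken of the summed transcripts of the E2F members, without E2f5. The share of E2f4 was 31.5%, 31.4% and 31.3% in LFA1-lo and 20.4%, 19.9% and 21.1% in LFA1-hi. The share of the atypical pair was 13.3%, 12.8% and 19.0% in LFA1-lo and 27.3%, 27.6% and 24.6% in LFA1-hi. E2f2 took 7.60% ± 2.52 in LFA1-lo and 13.7% ± 0.861 in LFA1-hi, and E2f3 12.0% ± 2.87 and 6.76% ± 0.533 (mean ± SD, n = 3 each). None of these 4 shares overlapped between the groups. The share of E2f6 did overlap (13.7% ± 2.12 and 14.4% ± 1.09), as did that of the activators together (40.0% ± 2.67 and 38.6% ± 1.18).

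Within the pocket proteins, Rbl1 took 20.6%, 29.4% and 22.6% of the summed TPM in LFA1-lo and 43.3%, 44.3% and 42.9% in LFA1-hi. It was the least abundant pocket protein transcript in each LFA1-lo library and the most abundant in each LFA1-hi library. The ratio of Rbl1 to Rbl2 was 0.660 ± 0.179 in LFA1-lo and 1.65 ± 0.0714 in LFA1-hi, and that of Rbl1 to Rb1 0.630 ± 0.153 and 1.44 ± 0.0287 (mean ± SD, n = 3 each). Summed pocket protein TPM per TPM of the E2F members was 0.639, 0.550 and 0.673 in LFA1-lo and 0.429, 0.427 and 0.461 in LFA1-hi, without overlap.

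**Figure D4:**
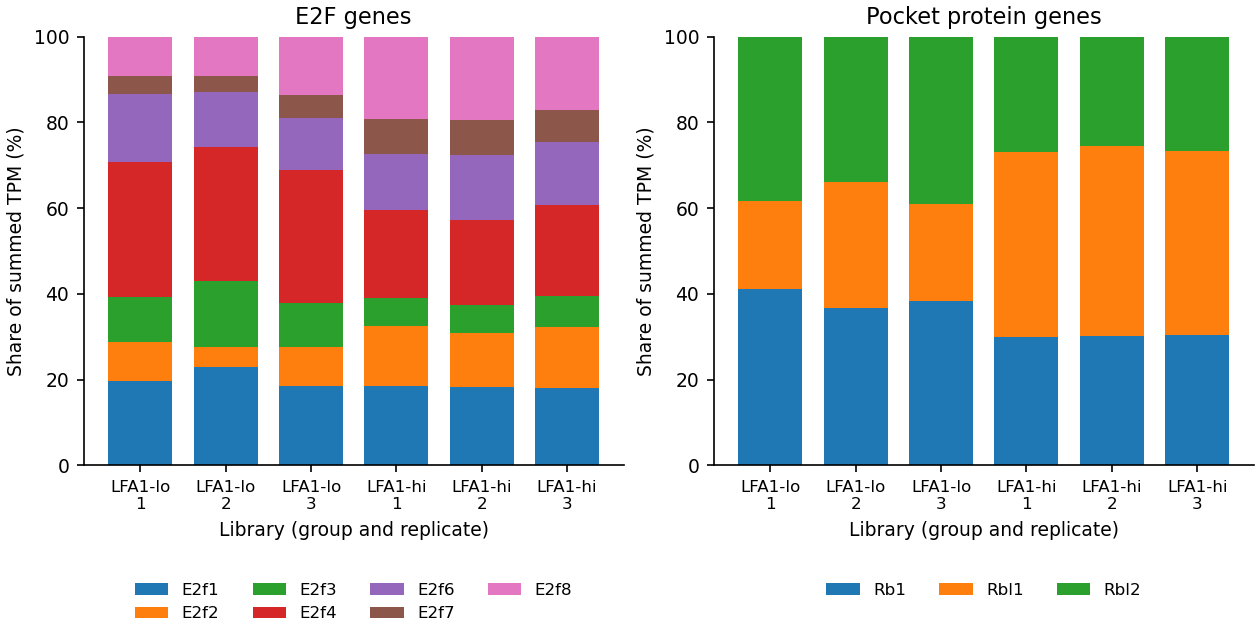
Share in percent of the summed TPM (y axis) that each E2F member (left, without E2f5) and each pocket protein gene (right) took in each library (x axis). E2f4 takes 31.4% on average in LFA1-lo and 20.5% in LFA1-hi, and Rbl1 24.2% and 43.5%.

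With the promoter windows set beside the levels, 3 of the 4 members with an E2F word (E2f2, E2f7 and Rbl1) rose by 2.42-fold to 3.45-fold, and the other, E2f3, did not pass the test. No E2F word was in the windows of E2f1, E2f6 and E2f8, which also rose, nor in that of Rbl2, which did not pass. The windows of E2f1 and E2f8 leave out the 5′ end of the gene's span, so nothing is shown of the sequence there. A match is a description of the letters and not a measured binding site. Of the classical E2F target genes 11 of 25 matched genes (44.0%) had an E2F word in a window.

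The dimerization partners and the family member E2f5 were examined next, from lists chosen with earlier results of these data known. Tfdp1, the partner through which most E2Fs bind DNA, rose from 44.3 ± 2.60 to 83.35 ± 2.86 TPM (mean ± SD, n = 3 per group; log2 fold change 0.93, edgeR adjusted p = 6.2e-05). Tfdp2, the second partner, was at 5.75 ± 2.20 and 8.57 ± 1.23 TPM (0.62, adjusted p = 0.108), and passed without LFA1-lo replicate 2 (0.34, adjusted p = 0.0299, range over alternatives 0.0299 to 0.252). E2f5, a repressor like E2f4, was low in both cultures, at 6.62 ± 0.959 and 6.77 ± 0.799 TPM (0.05, adjusted p = 0.879).

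The MuvB core joins Rbl1 or Rbl2 and E2f4 into a repressor complex in resting cells, and joins Myb or forkhead factors to activate mitotic genes. Of 8 genes of this list 6 rose and none fell (median log2 fold change 0.71), and 5 or 6 rose without any 1 library. Mybl2, the Myb factor of cycling cells, went from 5.71 ± 0.200 to 21.2 ± 1.33 TPM (1.92, edgeR adjusted p = 1.4e-05). Foxm1, the forkhead factor of mitosis, went from 13.5 ± 3.25 to 36.8 ± 3.74 TPM (1.47), and Mybl1 rose by 1.49 and Lin54, the DNA-binding subunit, by 0.89 on the log2 scale. The core subunits Lin37 (−0.15, adjusted p = 0.551) and Lin52 (0.23, adjusted p = 0.468), named after their values were seen, did not pass.

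Among the cyclins and kinases that phosphorylate pocket proteins 7 of 9 rose and none fell (median 1.25), and 6 to 8 rose without any 1 library. Cyclin E genes changed most, with Ccne2 at 8.16 ± 1.05 TPM in LFA1-lo and 37.4 ± 0.387 TPM in LFA1-hi (n = 3 each), a log2 fold change of 2.22, and Ccne1 at 7.79 ± 1.31 and 30.95 ± 2.90 TPM (log2 fold change 2.01, edgeR adjusted p = 5.4e-05). Ccnd1, encoding cyclin D1, was the most abundant, at 205 ± 27.4 and 492 ± 24.3 TPM (1.28), and Ccna2, encoding cyclin A2, rose by 1.62. The 2 that did not pass, named after their values were seen, were Ccnd3 (0.66, adjusted p = 0.0640) and Cdk6 (−0.10, adjusted p = 0.502). Ccnd3 passed without LFA1-lo replicate 2 (0.41, adjusted p = 0.00317) or replicate 3 (0.86, adjusted p = 0.0322), with DESeq2 (adjusted p = 0.01497) with limma voom (0.0496) and in 3 other alternatives, over a range of 0.00317 to 0.161.

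Inhibitors of those kinases moved both ways, with 3 of 7 higher and 2 lower (median 0.12). Cdkn2c and Cdkn2d, inhibitors of the cyclin D kinases, rose from 39.9 ± 10.4 to 78.8 ± 3.62 TPM and from 21.6 ± 2.14 to 48.2 ± 8.96 TPM (n = 3 each; log2 fold changes 1.19 and 1.17). Cdkn2b, of the same family, fell from 16.6 ± 7.96 to 3.70 ± 0.408 TPM (−2.15, edgeR adjusted p = 0.00321), and Cdkn1b, an inhibitor of resting cells, from 32.96 ± 9.96 to 16.5 ± 2.10 TPM (−0.98, adjusted p = 0.00907). Cdkn1a, named after its values were seen, rose by 0.74. Cdkn1c and Cdkn2a did not pass (−0.68 and 0.12, adjusted p = 0.376 and 0.861).

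E2f6 represses within a Polycomb complex, and of 10 genes of that complex 3 rose and none fell (median 0.13). L3mbtl2, a histone-binding subunit, rose from 13.3 ± 2.38 to 23.3 ± 2.17 TPM (n = 3 each; log2 fold change 0.83, edgeR adjusted p = 0.00212), Cbx3, a heterochromatin protein, by 0.70, and Wdr5, a scaffold protein named after its values were seen, by 0.37. Wdr5 was no longer called without LFA1-hi replicate 2 (adjusted p = 0.0556) or replicate 3 (adjusted p = 0.0501), and over all alternatives its adjusted p ran from 0.00424 to 0.0556. Between 2 and 4 genes of the complex rose without any 1 library. Pcgf6 (0.53, adjusted p = 0.208) and the ligase subunit Ring1 (−0.42, adjusted p = 0.124) did not pass. Without LFA1-lo replicate 2 they did, at 0.84 and −0.51 (adjusted p = 0.0416 and 0.0436). Without LFA1-lo replicate 3, Rnf2 and Rybp, also of this complex and named after their values were seen, fell (−0.37 and −0.32, adjusted p = 0.0308 and 0.0443), against −0.29 and −0.25 with all libraries.

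Germline genes that E2f6 is known to keep silent were near the limit of detection in both cultures. Of 6 listed, 1 passed the filter on low counts, and Mael was listed at 0 in all libraries. Stag3, a cohesin subunit of meiosis, went from 0.193 ± 0.0737 to 0.727 ± 0.150 TPM (n = 3 per group; log2 fold change 1.93, edgeR adjusted p = 0.0180), from at most 37 counts in a library. Leaving out LFA1-lo replicate 3, or LFA1-hi replicate 1, 2 or 3, ended the call for Stag3 (adjusted p = 0.0518 to 0.0841).

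Among subunits and regulators of the ligases that degrade E2F factors 3 of 6 rose and none fell (median 0.42). Fbxo5, an inhibitor of the anaphase-promoting complex, rose from 11.4 ± 4.24 to 33.1 ± 1.13 TPM (n = 3 each; log2 fold change 1.57, edgeR adjusted p = 0.00116), Ccnf, encoding cyclin F, from 14.8 ± 2.81 to 41.0 ± 2.84 TPM (1.49), and Skp2 by 0.75. The ligase subunits Cul4a (−0.22, adjusted p = 0.0709) and Ddb1 (0.03) did not pass, nor did Fzr1 (0.08), a coactivator of the anaphase-promoting complex that recognises its substrates. Fzr1 and Ddb1 were named after their values were seen. Cul4a passed in limma-trend on log2 of TPM + 0.1 or TPM + 1 (adjusted p = 0.04892 and 0.04897), and over alternatives its adjusted p reached 0.253.

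The classical E2F target genes, chosen when S phase genes were already known to differ here, had 28 of 29 higher and none lower (median 1.55), and 28 or 29 without any 1 library. Large changes included those of the replication factor gene Cdc45 (6.61 ± 1.67 to 31.5 ± 2.70 TPM, n = 3 each; log2 fold change 2.21) and the checkpoint kinase gene Chek1 (2.02), with Ccne1, which is also a target. Pcna, the sliding clamp of DNA replication and named after its values were seen, did not pass (0.25, edgeR adjusted p = 0.397) except without LFA1-lo replicate 2 (0.55, adjusted p = 1.3e-05). It made up 45.1% to 62.1% of the list's summed TPM in the LFA1-lo libraries, against 31.8% to 33.6% in LFA1-hi, so sums were also taken without it.

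Member transcripts were then set against their targets. Per 100 TPM of summed targets without Pcna, E2f1 had 3.74, 4.37 and 3.21 TPM in LFA1-lo and 2.29, 2.19 and 2.20 TPM in LFA1-hi. E2f7 had 0.783, 0.687 and 0.912 TPM in LFA1-lo and 1.02, 0.971 and 0.929 TPM in LFA1-hi. On this scale E2f1 was lower and E2f7 higher in every LFA1-hi library, while E2f2 and E2f8 overlapped between the groups. Rbl1 was lower on it in LFA1-hi (2.74 ± 0.296 and 2.34 ± 0.0809 TPM), as were E2f3, E2f4, E2f6, Rb1 and Rbl2, without overlap. With Pcna in the sum, E2f2, E2f8 and Rbl1 were instead higher in every LFA1-hi library and E2f6 overlapped, while E2f1 stayed lower (1.75 ± 0.0849 and 1.495 ± 0.0565 TPM per 100) and E2f7 higher (0.381 ± 0.120 and 0.655 ± 0.0397 TPM per 100).

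**Figure D5:**
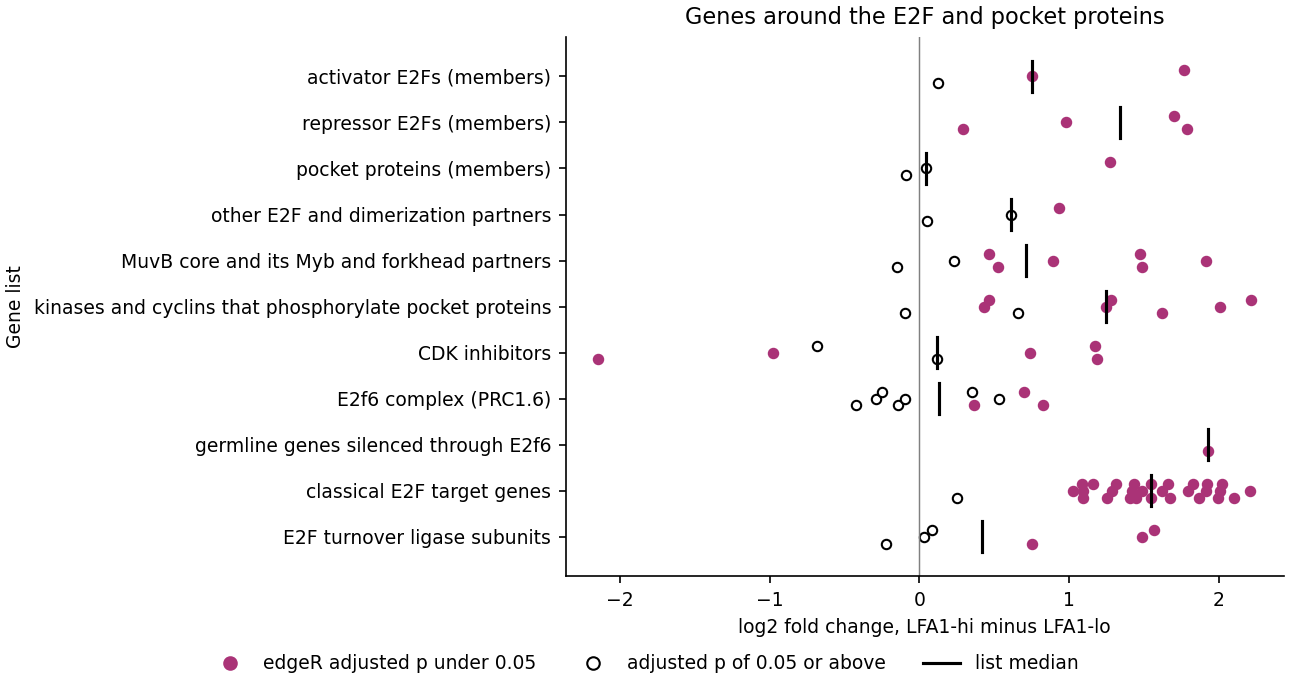
Log2 fold change of LFA1-hi minus LFA1-lo (x axis) for each tested gene of the member groups and of the related lists (y axis); filled points had an edgeR adjusted p under 0.05 and black lines are list medians. Classical targets lie around a median of 1.55 with Pcna at 0.25, while CDK inhibitors run from −2.15 to 1.19.

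The genes whose pattern over the 6 libraries was most like that of each member were found among 9529 tested genes with a mean of at least 5 CPM (counts scaled to library size). Likeness was the root mean square distance between log2 CPM values centred on each gene's mean. Genes near a member by this measure share its difference between the groups by construction, so their calls add nothing to it. Nearest to E2f7 were Mad2l1, a spindle checkpoint protein (distance 0.0331), Tcf19 (0.0454) and Birc5, or survivin (0.0605). Nearest to E2f8 were Nuf2, a kinetochore protein (0.0396), Lmnb1, a nuclear lamina protein (0.0643), and Ccna2 (0.0775). Rbl1 was nearest to Mtbp (0.0571), the heterochromatin gene Cbx5 (0.0612) and the replication helicase gene Mcm3 (0.0620). All of these genes were called higher in LFA1-hi, as were those nearest to E2f1, E2f2, E2f4 and E2f6, named below.

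E2f1 was nearest to Hint1 (0.0204), Mrpl51 (0.0302), a mitochondrial ribosomal protein gene, and Tmem209 (0.0349). E2f2 had no close neighbour, with Havcr2, the receptor TIM-3, at 0.107, 4930427A07Rik at 0.121 and Rad51ap1 at 0.127. E2f6 was nearest to Fancm (0.0559), Slc19a2 (0.0580) and Tmem237 (0.0777), and E2f4 to Xpnpep1 (0.0204), Ints4 (0.0227) and Mcmbp (0.0262). Like E2f4, these last genes lost their call in some of the 19 alternatives. Xpnpep1 did so in 3 (adjusted p up to 0.0634), Ints4 in 5 (up to 0.09505) and Mcmbp in 5 (up to 0.0800). E2f3 lay nearest to Ckb (0.0332), Rpn1 (0.0467) and Alg5 (0.0501), genes that like it were not called in the main edgeR test. Each of them, like E2f3, gained a call in 1 alternative (lowest adjusted p over alternatives 0.000337, 0.000135 and 0.0216). Rb1 lay nearest to Hltf (0.0250), Apaf1 (0.0304) and Adam9 (0.0305), and Rbl2 to Arhgef6 (0.0320), Eps15 (0.0394) and Mknk2 (0.0431). None of these was called in the main edgeR test. Arhgef6 and Mknk2 each gained a call in 1 alternative (lowest adjusted p over alternatives 0.0496 and 0.00765).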

How the data were processed

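RNA of 6 macrophage samples was sequenced after enzymatic removal of ribosomal RNA, per the labels' protocols. Tools recorded in the submitters' processing notes are bcl2fastq, Trim Galore and RSEM, with the build GRCm38. Their versions, the aligner and the strand setting are not given in the sources used. Per the file headers the deposited values are RSEM expected counts (not normalized), TPM and FPKM, each per gene and library. Expected counts were rounded (5.53% to 6.06% of genes in a library were not whole), filtered with filterByExpr (11692 of 24411 genes left) and scaled by TMM. The test was the robust quasi-likelihood test of edgeR 4.0.16 in R 4.3.3, and p-values were adjusted after Benjamini and Hochberg over the 11692 genes. Intervals are approximate 95% intervals for the fold change, computed from the test statistic of that fit. They rest on the variation between libraries. Levels, sums and ratios are of deposited TPM. The procedure was also run on simulated counts, drawn with the dispersions of this same fit, which does not check the model itself.

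The members and lists were chosen with earlier results of these data known. Named are the members, up to 4 genes of each list with the largest absolute log2 fold change, every gene of a list of 3, and the 3 genes nearest to each member; others are marked, and values of a few listed genes are not reported here. Alternatives were other scalings, filters, unrounded counts, DESeq2 1.42.0, limma 3.58.1 (voom, or trend on log2 of TPM or FPKM plus a pseudocount), a fit that is not robust, a replicate block and leaving out each library. Promoters are from RefSeq. Tables and figures used pandas 2.3.3 and matplotlib 3.10.9.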

Additional observations from a re-analysis of the deposited data

How the results depend on the processing

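The count of members called higher was 7, and of members called lower 0, in each alternative of scaling, filter, rounding, tool, unit and pseudocount. Leaving out a library gave 6 to 8 higher. The replicate block gave 6, with E2f4 no longer called (log2 fold change 0.29, adjusted p = 0.0665). Same-numbered libraries did not deviate together (correlations 0.037, 0.018 and −0.072), so the numbers were not taken as pairs. Over all genes the block gave 1692 higher and 1561 lower calls, against 1883 and 1822. Leaving out a library gave 1169 to 2589 higher and 1099 to 2443 lower, the highest counts without LFA1-lo replicate 2 and the lowest without LFA1-hi replicates. Scaling by library totals alone changed the balance to 2294 higher against 1471 lower, and log2(FPKM + 0.1) to 2339 against 1319. The activator to repressor ratio (0.668 in LFA1-lo, 0.63 in LFA1-hi) became 1.41 and 0.947 with E2f4 left out and 2.77 and 1.46 with E2f7 and E2f8 alone. Both values are larger where fewer genes are summed as repressors. E2f4 rose 1.23-fold, E2f7 3.45-fold and E2f8 3.26-fold, so leaving E2f4 out also moved the groups apart in this ratio. With all 4 repressors and without single libraries, the ratio ran from 0.626 to 0.699 in LFA1-lo and from 0.618 to 0.648 in LFA1-hi.

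Of 190 log2 fold changes of members under alternatives, 182 kept direction and call, 5 (all E2f4) lost the call, 1 (E2f3) gained it and 2 changed sign. Of 1341 for other named genes, 1284 kept both, 19 lost the call, 20 gained it and 18 changed sign, all 18 without a call. Genes rarer than 10 CPM had no value under that filter. Without single libraries, the log2 fold changes that changed sign ran from −0.061 to 0.11 for Rb1 and from −0.22 to 0.027 for Rbl2. They ran from −0.039 to 0.20 for E2f5, from −0.24 to 0.018 for Lin37, from −1.03 to 0.034 for Cdkn1c and from −0.16 to 0.36 for Cdkn2a. Among the genes nearest to a member they ran from −0.022 to 0.14 for Adam9, −0.076 to 0.13 for Apaf1, −0.048 to 0.14 for Hltf, −0.015 to 0.35 for Ckb, −0.19 to 0.074 for Arhgef6 and −0.16 to 0.081 for Eps15. With library totals alone Arhgef6 (0.012) and Eps15 (0.0084) changed sign, as they did on log2(FPKM + 0.1) (0.035 and 0.028). The cause was not tested. Counts of list genes without each library, and target sums without Pcna, were chosen after seeing the data.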
